A study of Mus musculus with 12 samples.

Results

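The 5 genes described here encode 3 cytokines that signal through the shared receptor chain gp130, namely interleukin 6 (Il6), oncostatin M (Osm) and leukaemia inhibitory factor (Lif), together with gp130 itself (Il6st) and the ligand-binding interleukin 6 receptor chain (Il6ra). They were found by gene symbol among 57009 gene identifiers, and all 5 were among the 14413 genes with enough counts to be tested. The set was chosen by measured values, since Il6 and Osm had come to attention in the comparison of the 2 T cell cultures and Il6 in that of LPS with DC only. For those 2 comparisons the members' differences are therefore given as a description with no test. The other comparisons share libraries with them and are not independent of that choice.

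RNA was measured in mouse splenic dendritic cells (DCs) of the strain C57BL/6, in 4 groups of 3 libraries. DCs were kept for 3 h alone (DC only), with lipopolysaccharide (LPS), with C57BL/6 effector memory T cells (SynTem, syngeneic) or with memory T cells specific for alloantigen and derived from BALB/c mice (AlloTem). The DCs of all groups came from spleens of mice that carried B16 melanoma cells secreting Flt3 ligand, which expands DCs, so no group represents DCs of an untreated spleen. T, B and natural killer (NK) cells and macrophages had been removed with beads, and the cells were sorted after culture on CD11b and CD11c, which leaves room for other CD11b-positive or CD11c-positive cells. Whether replicates were different mice or different cultures is not in the labels, and a p-value here reflects only how far these libraries varied, which may be technical.

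Interleukin 6 binds its own receptor chain, Il6ra, and the pair then engages gp130 on the same cell or, when Il6ra is shed or presented by another cell, on cells that lack it. LIF binds gp130 together with LIFR, and oncostatin M binds it together with OSMR or LIFR. Engaged gp130 activates JAK kinases and STAT3, and STAT3 induces the inhibitor SOCS3, which binds gp130 and limits further signalling. In DCs, interleukin 6 is a classic product of Toll-like receptor stimulation and acts on T cell differentiation, while T cells and basophils can transcribe several of these cytokines too.

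On the genome build GRCm38 (GENCODE M21), Il6 (ENSMUSG00000025746) lay on the plus strand at chr5:30013114-30019981. Osm (ENSMUSG00000058755, chr11:4236420-4241026) and Lif (ENSMUSG00000034394, chr11:4257557-4272514) were neighbours on the plus strand of chromosome 11, with 16530 bases and 0 genes wholly between them. Il6st (ENSMUSG00000021756) lay on the plus strand at chr13:112464070-112510086 and Il6ra (ENSMUSG00000027947) on the minus strand at chr3:89864059-89913196. Of the exon bases of Il6ra, 2.8% (242 bases) overlap an antisense gene, and the strand setting of the counting is not given, so reads there cannot be assigned to 1 strand. Counts were summed over whole genes, and no transcript form was separated.

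RefSeq promoter windows (GRCm38.p6) were matched for 4 of the 5 genes, with none for Osm. The 250 bases before the RefSeq start are printed for Il6 and Lif, which were higher in AlloTem than in DC only, and for Il6st, which was lower. Capitals mark matches, on either strand, to letters recognised by factors active in stimulated DCs, and no match overlaps another.
Il6: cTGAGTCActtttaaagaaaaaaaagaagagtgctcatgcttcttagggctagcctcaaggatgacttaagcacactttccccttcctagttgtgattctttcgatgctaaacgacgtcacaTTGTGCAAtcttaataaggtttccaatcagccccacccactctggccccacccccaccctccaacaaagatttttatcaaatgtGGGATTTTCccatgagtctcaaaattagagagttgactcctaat
Lif: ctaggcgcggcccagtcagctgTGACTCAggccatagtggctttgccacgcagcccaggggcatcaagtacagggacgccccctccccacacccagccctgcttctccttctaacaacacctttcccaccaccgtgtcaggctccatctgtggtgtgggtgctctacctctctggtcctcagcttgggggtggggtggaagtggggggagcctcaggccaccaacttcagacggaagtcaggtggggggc
Il6st: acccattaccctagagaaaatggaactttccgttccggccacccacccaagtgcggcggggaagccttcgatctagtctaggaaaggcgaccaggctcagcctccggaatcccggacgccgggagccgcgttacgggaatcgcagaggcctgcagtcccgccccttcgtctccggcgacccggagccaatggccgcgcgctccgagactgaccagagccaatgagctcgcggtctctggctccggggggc
The windows are chr5:30012864-30013113, chr11:4257318-4257567 and chr13:112463820-112464069, all on the plus strand. The motifs searched were kB (GGGNNTTTC), AP-1 (TGANTCA), STAT (TTCNNNGAA), CRE (TGACGTCA) and CEBP (TTGCNNAA). The window of Il6 held an AP-1 match 249 to 243 bases before the start, a CEBP match at 128 to 121 and a kB match at 44 to 36. That of Lif held 1 AP-1 match 228 to 222 bases before the start, and the windows of Il6st and Il6ra held none of the 5 motifs. Of 32851 mouse windows of the same length, 3.7% held the kB letters, 6.7% AP-1, 7.0% STAT, 1.5% CRE and 9.6% CEBP in at least 1 place. A match is a string of letters and was not measured as a bound site.

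Library totals ran from 13903574 to 21861156 counts. Genes that mark DCs were present in all 12 libraries, with Flt3 at 316.1 to 460.5 CPM (counts scaled to a common library total), Zbtb46 at 101.8 to 224.3 and Clec9a at 77.1 to 145.8. Traces of other cells differed between groups, as given below. Libraries also fell into those with Y-linked transcripts (131 to 220 CPM in library 3 of each group and in SynTem 2) and those with 0 to 10.3 CPM. In bulk RNA, a change in the share of cells that transcribe a gene and a change in RNA per cell cannot be told apart.

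Il6 was highest in AlloTem. Its level was 5.13, 4.85 and 2.01 CPM in DC only libraries 1 to 3 and 20.6, 14.0 and 9.30 CPM in LPS. It was 4.61, 2.79 and 9.31 CPM in SynTem and 36.6, 40.3 and 22.6 CPM in AlloTem. Every AlloTem library lay above every other library, and LPS lay above DC only in each batch, whereas SynTem overlapped both DC only and LPS. The group means were 4.0 ± 1.73 CPM in DC only, 14.6 ± 5.68 in LPS, 5.57 ± 3.37 in SynTem and 33.2 ± 9.37 in AlloTem (SD, n = 3 each). The LPS library with the most Il6, library 1, was also the highest of its group in summed T cell (90.9 CPM), NK cell (438.9 CPM), neutrophil (189.6 CPM) and macrophage markers (76.1 CPM), whose part in its level was not tested. Summed NK cell markers were highest in library 1 of the other groups too, at 128.8 CPM in DC only, 302.0 in SynTem and 435.7 in AlloTem.

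Osm encodes a cytokine made by activated myeloid and T cells. It stood at 2.57, 3.88 and 2.40 CPM in DC only, 7.73, 4.63 and 2.63 CPM in LPS, 9.37, 4.75 and 13.6 CPM in SynTem, and 54.1, 45.7 and 32.5 CPM in AlloTem. The lowest AlloTem library was again above the highest of the other 9, and SynTem was next without separating from LPS. The means were 2.95 ± 0.813 CPM in DC only, 5.0 ± 2.57 in LPS, 9.25 ± 4.44 in SynTem and 44.1 ± 10.9 in AlloTem (SD, n = 3 each). The order of LPS and SynTem was thus the reverse of that for Il6, with overlapping libraries in both cases.

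Lif, a cytokine known for keeping mouse embryonic stem cells undifferentiated, was nearly silent in DCs alone. DC only held 4, 0 and 7 counts of it, which is 0.25, 0 and 0.34 CPM, and 0 counts in library 2 allow up to 0.167 CPM (3 counts, counting error only). LPS libraries had 1.26, 0.89 and 1.01 CPM, SynTem 0.67, 2.15 and 7.83 CPM, and AlloTem 12.1, 13.3 and 4.67 CPM. LPS lay above DC only in every library, but SynTem spread over LPS and AlloTem, since SynTem library 3 exceeded AlloTem library 3. The means were 0.198 ± 0.177 CPM in DC only, 1.05 ± 0.187 in LPS, 3.55 ± 3.78 in SynTem and 10.03 ± 4.68 in AlloTem (SD, n = 3 each). Lif passed the filter on low counts through the other 3 groups, being above 0.573 CPM in all their libraries and in 0 of 3 in DC only.

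**Figure D1:**
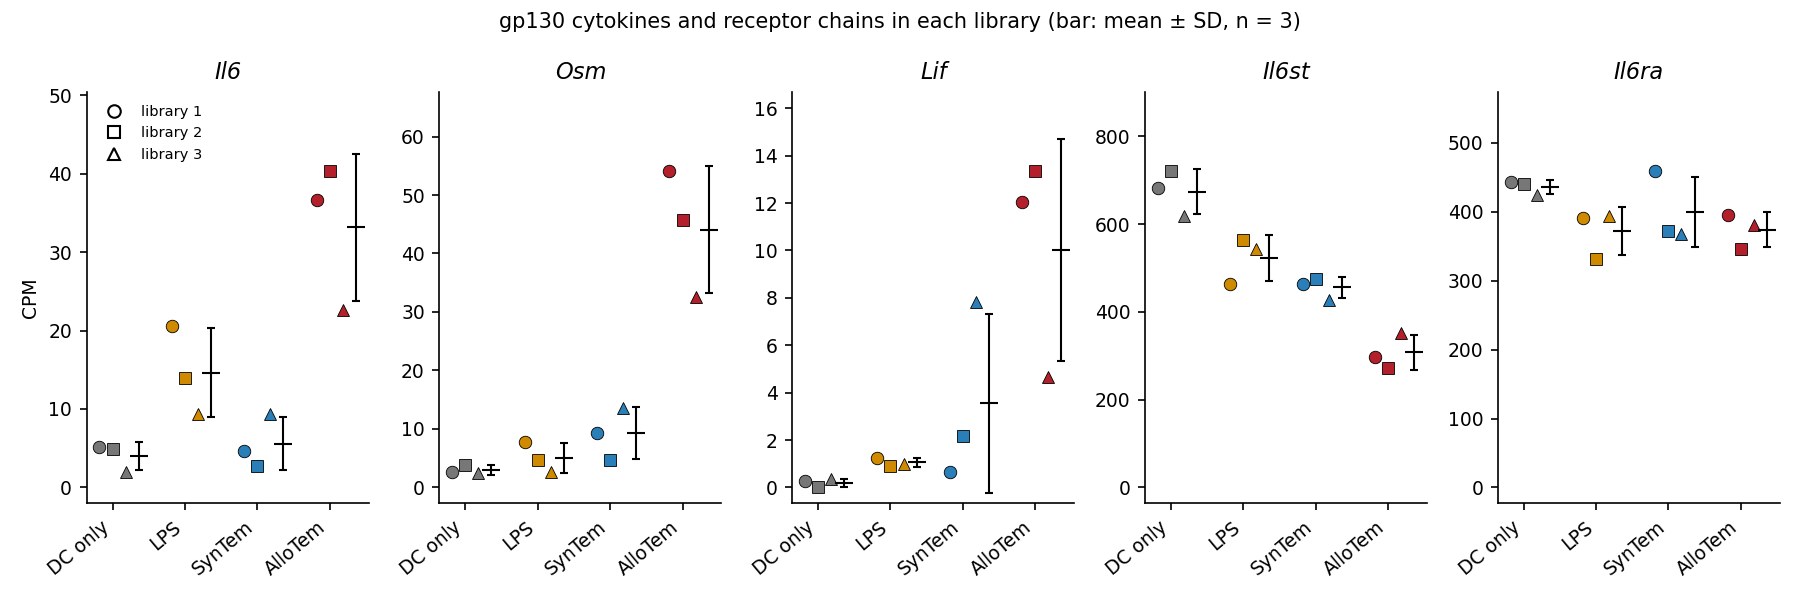
Level in CPM (linear vertical axis, different in each panel) of the 5 genes in each of 12 libraries by group, with symbols for libraries 1 to 3 and a bar for the mean ± SD of 3 libraries. Il6 and Osm in AlloTem lie above all other libraries, Il6st in AlloTem lies below all others, Lif in SynTem and AlloTem overlaps, and Il6ra stays between 331.9 and 459.1 CPM.

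The receptor chains were abundant in every library. Il6st, the signalling chain, stood at 682.4, 721.1 and 618.9 CPM in DC only and 464.2, 563.6 and 542.4 CPM in LPS. It was 463.5, 475.9 and 427.8 CPM in SynTem and 298.1, 272.9 and 351.7 CPM in AlloTem. Il6st was therefore lowest in AlloTem and highest in DC only, with no overlap of either with the remaining libraries, while LPS and SynTem overlapped. The means were 674.1 ± 51.6 CPM in DC only, 523.4 ± 52.3 in LPS, 455.7 ± 24.9 in SynTem and 307.6 ± 40.2 in AlloTem (SD, n = 3 each).

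Il6ra, the chain that binds interleukin 6 itself, moved little. Its level was 443.4, 440.8 and 424.9 CPM in DC only, 391.3, 331.9 and 393.7 CPM in LPS, 459.1, 372.4 and 367.6 CPM in SynTem, and 395.3, 345.6 and 381.3 CPM in AlloTem. DC only lay above LPS and above AlloTem, and the other groups overlapped. The means were 436.4 ± 9.99 CPM in DC only, 372.3 ± 35.0 in LPS, 399.7 ± 51.5 in SynTem and 374.1 ± 25.6 in AlloTem (SD, n = 3 each).

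With Il6ra nearly level and Il6st lower, the balance of the 2 chains differed between groups. The ratio of Il6ra to Il6st counts within a library was 0.650, 0.611 and 0.687 in DC only, 0.843, 0.589 and 0.726 in LPS, 0.991, 0.783 and 0.859 in SynTem, and 1.33, 1.27 and 1.08 in AlloTem. All 3 AlloTem libraries lay above the other 9, SynTem lay above DC only, and LPS overlapped both. The means were 0.649 ± 0.0377, 0.719 ± 0.127, 0.877 ± 0.105 and 1.23 ± 0.126 in that order (SD, n = 3 each). Gene length and scaling between libraries cancel when this ratio is compared across groups.

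**Figure D2:**
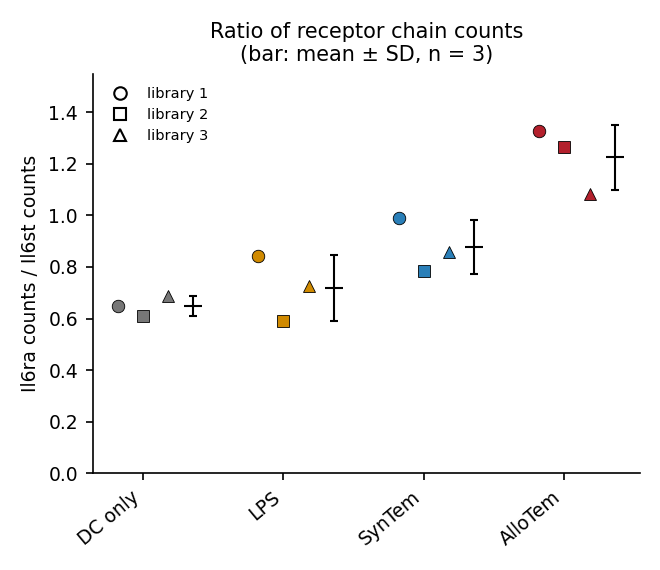
Counts of Il6ra divided by counts of Il6st in each library (vertical axis, no unit) by group, with symbols for libraries 1 to 3 and a bar for the mean ± SD of 3 libraries. The 3 AlloTem libraries, at 1.08 to 1.33, lie above all others, and DC only lies between 0.611 and 0.687.

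Per kilobase of merged exons, levels can also be set against each other between genes. In AlloTem the means were 19.4 ± 4.78 CPM per kb for Osm, 13.7 ± 3.86 for Il6 and 2.31 ± 1.08 for Lif (SD, n = 3). The receptor chains stood at 43.3 ± 2.97 CPM per kb for Il6ra and 27.7 ± 3.63 for Il6st in the same libraries (SD, n = 3). In DC only, Il6st had 60.7 ± 4.65 CPM per kb and Il6ra 50.5 ± 1.16, against 1.65 ± 0.712 for Il6, 1.30 ± 0.358 for Osm and 0.0455 ± 0.0408 for Lif (SD, n = 3). Values of the receptor chains thus exceeded those of each cytokine on this scale in both groups. The mean of Il6st was above that of Il6ra in DC only and below it in AlloTem. Merged exons cover all annotated transcript forms, and the lengths of the transcripts present were not measured. The order of genes may therefore differ with another choice of length.

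The comparison of AlloTem with DC only asks how DCs differ after culture with alloantigen-specific T cells. In it 4 of the 5 genes were called, 3 higher and 1 lower, where 1.76% of all genes were called (edgeR quasi-likelihood test, adjusted p under 0.05 over 14413 genes). Osm was 14.9-fold higher, a log2 difference of 3.90 ± 0.47 (SE, adjusted p = 0.00438 in edgeR), and Il6 was 8.32-fold higher, at 3.06 ± 0.51 (adjusted p = 0.0178 in edgeR). Lif had a log2 difference of 5.59 ± 1.01 (adjusted p = 0.0241 in edgeR), whose size rests on 11 counts in all of DC only. Il6st was 2.19-fold lower, at -1.13 ± 0.12 (adjusted p = 0.00171 in edgeR), and Il6ra had a log2 difference of -0.22 ± 0.11 that did not pass (adjusted p = 0.436 in edgeR). The directions of the 4 called genes were the same in 3 of 3 batches, which adds nothing, since no AlloTem library of these genes reached a DC only library.

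The calls of Osm and Il6st held whichever of the 6 libraries was left out, with adjusted p in edgeR of at most 0.0364 and 0.0162. Those of Il6 and Lif were lost on leaving out any of DC only 1, 2 or 3 or AlloTem 2. The adjusted p in edgeR was then 0.0541 to 0.0852 for Il6 and 0.0609 to 0.12 for Lif. Without AlloTem 1 the call of Lif was lost (0.0568), and Il6 lay at the threshold (0.05 after rounding). Both calls held without AlloTem 3 (0.0169 and 0.022). Log2 differences were at least 2.73 for Il6 and 5.03 for Lif throughout.

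Against LPS, a stimulus with no T cells, 2 of the 5 genes were called in AlloTem, Osm higher and Il6st lower, and 0.451% of all genes were called. Osm had a log2 difference of 3.14 ± 0.45 (adjusted p = 0.016 in edgeR) and Il6st of -0.77 ± 0.12 (adjusted p = 0.0185 in edgeR). Il6 had a log2 difference of 1.18 ± 0.47 (adjusted p = 0.63 in edgeR) and Lif of 3.25 ± 0.85 (adjusted p = 0.191 in edgeR), and neither passed. The log2 difference of Il6ra was 0.01 ± 0.11 (adjusted p = 1.0 in edgeR). Leaving out LPS 2, LPS 3 or AlloTem 2 ended the call of Osm (adjusted p = 0.125, 0.0615 and 0.0507 in edgeR). Leaving out any of these or AlloTem 1 ended that of Il6st (adjusted p = 0.125, 0.0921, 0.0775 and 0.0653 in edgeR).

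Syngeneic T cells gave smaller differences. In SynTem against DC only, 0 of the 5 genes were called in edgeR, where 0.0902% of all genes were. Of the 5, 3 had an unadjusted p under 0.05 in edgeR, as did 1187 of all 14413 genes. DESeq2 called 3 of the 5 and 255 of all genes, and limma voom called 0 and 2. The log2 differences were 1.65 ± 0.45 for Osm (adjusted p = 0.256 in edgeR, 0.0165 in DESeq2), 4.10 ± 0.98 for Lif (0.198 and 0.000654) and -0.57 ± 0.12 for Il6st (0.12 and 0.00127). Il6 differed by 0.49 ± 0.49 (adjusted p = 0.852 in edgeR), and by -0.11 without SynTem 3. The log2 difference of Il6ra was -0.13 ± 0.11 (adjusted p = 0.816 in edgeR).

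In SynTem against LPS, 0 of the 5 genes were called in edgeR, in DESeq2 and in limma voom. Of all 14413 genes, edgeR called 7 (0.0486%), DESeq2 198 and limma voom 1. Of the 5, 1 (Il6) had an unadjusted p under 0.05 in edgeR, as did 1148 of all genes. Il6 had a log2 difference of -1.39 ± 0.48 (adjusted p = 0.458 in edgeR). Within batches that difference was -2.05, -2.14 and 0.00, so batch 3 did not share it. Osm differed by 0.89 ± 0.43, Lif by 1.76 ± 0.83, Il6st by -0.20 ± 0.12 and Il6ra by 0.10 ± 0.11 on the log2 scale (SE, adjusted p of 0.644, 0.641, 0.692 and 0.84 in edgeR).

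The comparisons that drew attention to these genes are given without a test. In AlloTem against SynTem, where edgeR called 0.167% of all genes, the log2 difference was 2.57 for Il6, 2.25 for Osm, 1.49 for Lif, -0.57 for Il6st and -0.10 for Il6ra. In batches 1, 2 and 3 it was 2.86, 3.63 and 1.23 for Il6, 2.47, 3.14 and 1.22 for Osm, 3.43, 2.38 and -0.69 for Lif, and -0.64, -0.80 and -0.28 for Il6st. The difference was smallest in batch 3 for Il6, Osm and Il6st, and for Lif it was turned around there. In that batch SynTem had its highest Il6, Osm and Lif and its lowest Il6st, while AlloTem had its lowest Il6, Osm and Lif and its highest Il6st. Over the tested genes, deviations of SynTem and AlloTem from their group means correlated at 0.42, -0.10 and 0.10 in batches 1, 2 and 3. The pairing behind the differences in batches 2 and 3 is thus weak.

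SynTem library 3 also stood apart in Mpo, the myeloperoxidase of granulocyte precursors, at 564.8 CPM against 14.5 to 73.5 CPM in the other 11 libraries. The 6 other neutrophil markers summed to 185.2 CPM there, close to AlloTem 1 (169.7), LPS 1 (162.9) and SynTem 1 (134.7). In the remaining 8 libraries they summed to 14.8 to 41.8 CPM, with 41.8 and 34.1 in AlloTem 2 and 3 and 20.3 to 25.5 in DC only. Without SynTem library 3, the log2 differences of AlloTem against SynTem were 3.17 for Il6, 2.65 for Osm, 2.82 for Lif, -0.61 for Il6st and -0.15 for Il6ra. The value for Lif moved the most, from 1.49.

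In LPS against DC only, edgeR called 0.0% of all genes, none of 14413, with 531 at an unadjusted p under 0.05, 11 called by DESeq2 and 0 by limma voom. The members' log2 differences were 1.88 for Il6, 2.34 for Lif, 0.76 for Osm, -0.37 for Il6st and -0.23 for Il6ra. For Il6 they were 1.91, 1.44 and 1.97 in batches 1 to 3, and for Osm 1.42, 0.23 and 0.11, so the higher Osm in LPS came largely from library 1.

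**Figure D3:**
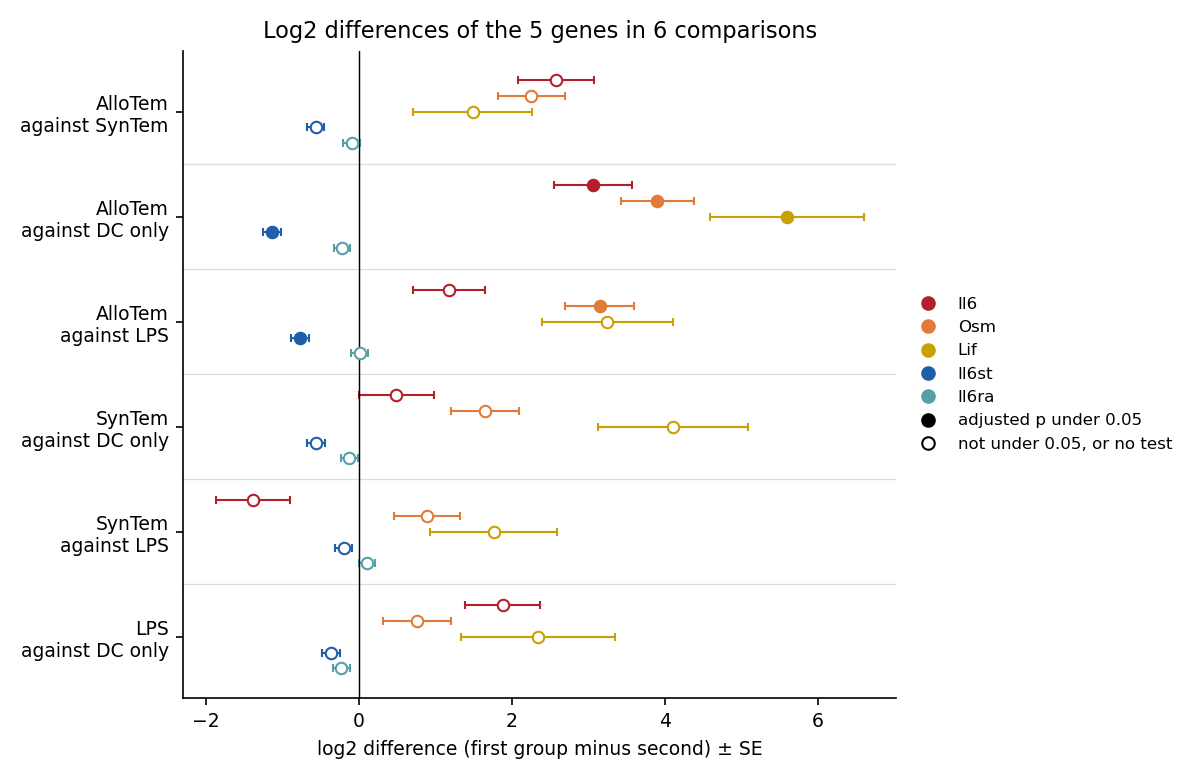
Log2 difference (horizontal axis, first group minus second, ± SE) of the 5 genes in 6 comparisons, filled where the adjusted p in edgeR was under 0.05 and open where it was not or where no test was made (AlloTem against SynTem, LPS against DC only). The filled points are Il6, Osm, Lif and Il6st in AlloTem against DC only, and Osm and Il6st in AlloTem against LPS, and Il6ra lies near 0 in all 6.

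Other cells in the sorted libraries differed between the groups. The summed level of 13 T cell markers was 28.0 to 49.2 CPM in DC only, 30.1 to 90.9 in LPS, 176.2 to 474.0 in SynTem and 85.9 to 172.9 in AlloTem. In AlloTem against DC only 7 of the 13 were called higher (1.76% of all genes were called), in SynTem against DC only 6 of 13 (0.0902%) and in AlloTem against SynTem 0 of 13 (0.167%). Each SynTem sum was above each AlloTem sum. The part of T cells in the members' levels was not tested. The 7 neutrophil markers summed to 37.4 to 89.6 CPM in DC only and 66.7 to 189.6 in LPS. They summed to 52.2 to 750.0 CPM in SynTem and 73.0 to 202.2 in AlloTem. In the same order, 6 macrophage markers summed to 25.0 to 34.4, 32.8 to 76.1, 26.0 to 130.2 and 28.5 to 115.3 CPM. In AlloTem against DC only 0 of 7 and 0 of 5 tested were called, with median log2 differences of 2.25 and 2.00. Their part was not tested either.

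Cytokine transcripts of activated T cells followed another order. Their sum over 8 genes (4 with enough counts to be tested, 1 at 0 in all libraries) was 0.098 to 1.14 CPM in DC only, 0.056 to 4.90 in LPS, 5.43, 3.23 and 4.68 in SynTem, and 19.6, 17.9 and 5.0 in AlloTem libraries 1 to 3. AlloTem library 3 was the lowest of its group in this sum and also in Il6, Osm and Lif. Their part in the members' levels was not tested.

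The 6 basophil and mast cell markers summed to 248.6 to 313.0 CPM in DC only, 192.4 to 455.4 in LPS, 221.8 to 292.4 in SynTem and 312.7 to 371.2 in AlloTem, most of it Kit, a receptor also found on other cells (181.0 to 451.0 CPM). The log2 difference of Kit was -0.01 between AlloTem and DC only and -0.21 between AlloTem and LPS. Over the 5 markers other than Kit, a set trimmed after the values were seen, the sum was 143.4, 18.4 and 41.5 CPM in AlloTem, and 0.833 to 17.8 CPM in the other 9 libraries. Cpa3, the carboxypeptidase of mast cells and basophils, stood at 47.3, 4.57 and 23.4 CPM in AlloTem. It was called higher there than in DC only (log2 difference 6.18 ± 1.04, adjusted p = 0.0191 in edgeR) and than in LPS (5.58 ± 1.00, adjusted p = 0.0481 in edgeR). It was 1 of 6 markers called in each, where 1.76% and 0.451% of all genes were called. AlloTem 1, with the highest of these 3 sums, had the highest Osm of the group, and AlloTem 2, with the lowest, had the highest Il6 and Lif. The part of these cells in the members' levels was not tested, and bulk counts do not say which cell a transcript came from.

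**Figure D4:**
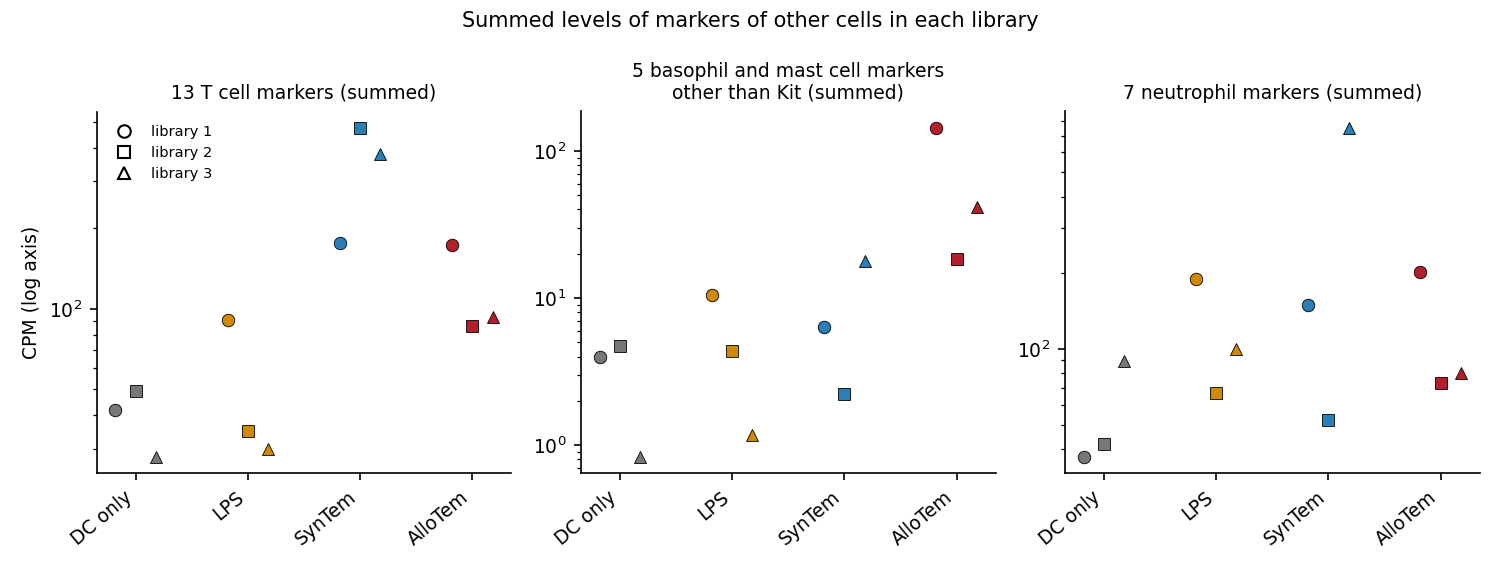
Summed level in CPM (log vertical axis) of 13 T cell markers, of 5 basophil and mast cell markers other than Kit, and of 7 neutrophil markers in each library by group, with symbols for libraries 1 to 3. T cell markers are highest in SynTem (176.2 to 474.0), the basophil and mast cell markers in AlloTem (18.4 to 143.4), and neutrophil markers in SynTem library 3 (750.0, of which 564.8 is Mpo).

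Of 43 other genes of the gp130 pathway, in 7 lists, 38 could be tested. The lists were chosen with earlier results of these data known, so counts and medians over them are descriptions. In AlloTem against DC only 5 of the 38 were called higher and 0 lower (edgeR, where 1.76% of all genes were called), with a median log2 difference of 0.30 over the 38 against 0.00 over all genes. In AlloTem against LPS 2 were called higher and 0 lower (0.451% of all genes were called), with a median of 0.09 against -0.005 over all genes. In AlloTem against SynTem, SynTem against DC only, SynTem against LPS and LPS against DC only edgeR called 0 of 38. It called 0.167%, 0.0902%, 0.0486% and 0.0% of all genes in that order. Of the 38, 10, 6, 7 and 5 had an unadjusted p under 0.05 in edgeR, against 1381, 1187, 1148 and 531 of all 14413 genes. DESeq2 called 5, 3, 1 and 0 of the 38, and 318, 255, 198 and 11 of all genes. In limma voom 1, 0, 0 and 0 of the 38 were called. Over all genes it called 27 higher and 2 lower in the first comparison, and 2, 1 and 0 in the others.

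Of the 4 inhibitors, 2 were called higher in AlloTem than in DC only (1.76% of all genes were called). Socs3, the feedback inhibitor that binds gp130, stood at 56.1, 53.4 and 24.5 CPM in DC only, 142.4, 89.8 and 142.1 in LPS, 160.5, 67.6 and 190.4 in SynTem, and 1181, 913.4 and 493.5 in AlloTem. All AlloTem libraries lay above the other 9, by a log2 difference of 4.27 ± 0.51 from DC only (adjusted p = 0.00438 in edgeR) and 2.79 ± 0.47 from LPS (adjusted p = 0.0405 in edgeR). The call against LPS did not hold with the replicate number as a block (adjusted p = 0.0613 in edgeR) and held without AlloTem 3 alone among single left-out libraries (0.0331). It had adjusted p from 0.0955 to 0.2 without each of LPS 1, LPS 2, LPS 3, AlloTem 1 and AlloTem 2. Against SynTem the log2 difference of Socs3 was 2.63 ± 0.47 (adjusted p = 0.0694 in edgeR, 0.0473 in limma voom and 3.71e-07 in DESeq2).

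Socs1, which inhibits JAK kinases, had 12.5, 9.60 and 2.15 CPM in DC only, 9.68, 7.78 and 3.75 in LPS, 32.9, 23.1 and 98.8 in SynTem, and 91.0, 241.9 and 93.2 in AlloTem. Both T cell cultures lay above both cultures with no T cells. In AlloTem against DC only the log2 difference was 4.14 ± 0.79 (adjusted p = 0.0293 in edgeR, and 0.0644 with the replicate block). The call held without AlloTem 3 (0.0362) and was lost without any of the other 5 libraries (DC only 1, 2 and 3, AlloTem 1 and 2, adjusted p of 0.0524 to 0.135 in edgeR). The other inhibitors, Pias3 and Ptpn2, were not called in edgeR in any comparison, although Ptpn2 was called in AlloTem against DC only when summed Y-linked transcripts entered the fit as a covariate (adjusted p = 0.0388 in edgeR, 0.237 without it).

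Among regulators of Il6 transcription and of the decay of its mRNA, 1 of 5 was called. This was in AlloTem against DC only and against LPS, where 1.76% and 0.451% of all genes were called. Arid5a, a protein that binds the Il6 transcript and stabilises it, stood at 77.7, 71.1 and 63.8 CPM in DC only, 80.6, 75.5 and 81.1 in LPS, 90.4, 108.8 and 175.9 in SynTem, and 192.4, 375.0 and 263.7 in AlloTem. AlloTem lay above all other libraries, with a log2 difference of 1.97 ± 0.27 from DC only (adjusted p = 0.00648 in edgeR) and of 1.81 ± 0.27 from LPS (adjusted p = 0.018 in edgeR). The call against DC only was lost without DC only 2 (0.0505), and that against LPS without LPS 1, LPS 2, LPS 3 or AlloTem 2 (0.0685, 0.125, 0.0921 and 0.0501). Zc3h12a (Regnase-1), which degrades Il6 mRNA, had mean levels of 62.1 ± 7.69 CPM in DC only, 103.9 ± 22.0 in LPS, 60.5 ± 19.2 in SynTem and 88.8 ± 14.1 in AlloTem (SD, n = 3), and was not called. With the replicate block it was called in SynTem against LPS (adjusted p = 0.0274 in edgeR, 0.335 with no block) and in AlloTem against DC only (0.0377 and 0.356).

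Of 10 STAT3 target genes, 2 were called higher in AlloTem than in DC only and none lower (1.76% of all genes were called). They were Il4ra, the interleukin 4 receptor chain (log2 difference 1.31 ± 0.28, adjusted p = 0.0438 in edgeR), and Batf, a partner of AP-1 factors (1.04 ± 0.21, adjusted p = 0.0362 in edgeR). Both calls were lost without any of DC only 1, 2 or 3 or AlloTem 1 or 2 (adjusted p of 0.114 to 0.162 for Il4ra and 0.0584 to 0.137 for Batf) and held without AlloTem 3 (0.0172 and 0.0434). Pim1 had a log2 difference of 1.19 ± 0.34 that did not pass (adjusted p = 0.141 in edgeR, 0.0161 with the Y-linked covariate and 0.0127 in DESeq2). Myc was called with the Y-linked covariate (adjusted p = 0.0419 in edgeR, 0.192 without it). Bcl3, Junb, Cebpb, Cebpd, Mcl1 and Hif1a were not called, and Cebpd had a mean of 55.8 CPM in DC only and 38.4 CPM in AlloTem. None of the 9 signal transduction genes was called in edgeR in any comparison, including Jak2 (0.65 ± 0.22 from DC only, adjusted p = 0.225 in edgeR) and Stat3 (0.57 ± 0.18, adjusted p = 0.175 in edgeR). Stat3 was called there with the Y-linked covariate (adjusted p = 0.0213 in edgeR), and DESeq2 called Jak2 in AlloTem against SynTem (adjusted p = 0.0197). The 3 genes of receptor shedding, Adam10, Adam17 and Rhbdf2, were not called either, and Adam17, the main sheddase of Il6ra, stood at 212.0 ± 34.9 CPM in DC only and 189.5 ± 40.4 CPM in AlloTem (SD, n = 3).

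Of the other receptor chains, Osmr had 0 counts in all 12 libraries, which allows at most 0.137 to 0.216 CPM per library, and Cntfr had 2 counts in LPS and 0 elsewhere. Lifr, the chain that LIF needs beside gp130, was present at 24.6, 28.0 and 59.2 CPM in DC only, 26.4, 14.6 and 52.1 in LPS, 33.5, 55.0 and 46.6 in SynTem, and 55.6, 42.6 and 124.3 in AlloTem. It was not called in edgeR in any comparison, and its level was highest in library 3 of DC only, LPS and AlloTem. With the Y-linked covariate, Lifr was called in AlloTem against DC only (adjusted p = 0.0377 in edgeR, 0.5 without the covariate) and against LPS (0.0187 and 0.719). Il27ra, which pairs with gp130 for interleukin 27, had 2.38 ± 0.708 CPM in DC only, 4.08 ± 2.95 in LPS, 11.4 ± 1.41 in SynTem and 7.92 ± 4.34 in AlloTem (SD, n = 3). It is also expressed by T cells, and it was called in AlloTem against DC only with the replicate block (adjusted p = 0.0428 in edgeR) and not without it (0.15). Of the other ligands, Ebi3 and Clcf1 were present, at 32.4 to 58.3 and 15.8 to 39.5 CPM, Il27 and Cntf stayed under 2.6 CPM, and Il11 and Ctf1 had too few counts to be tested.

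**Figure D5:**
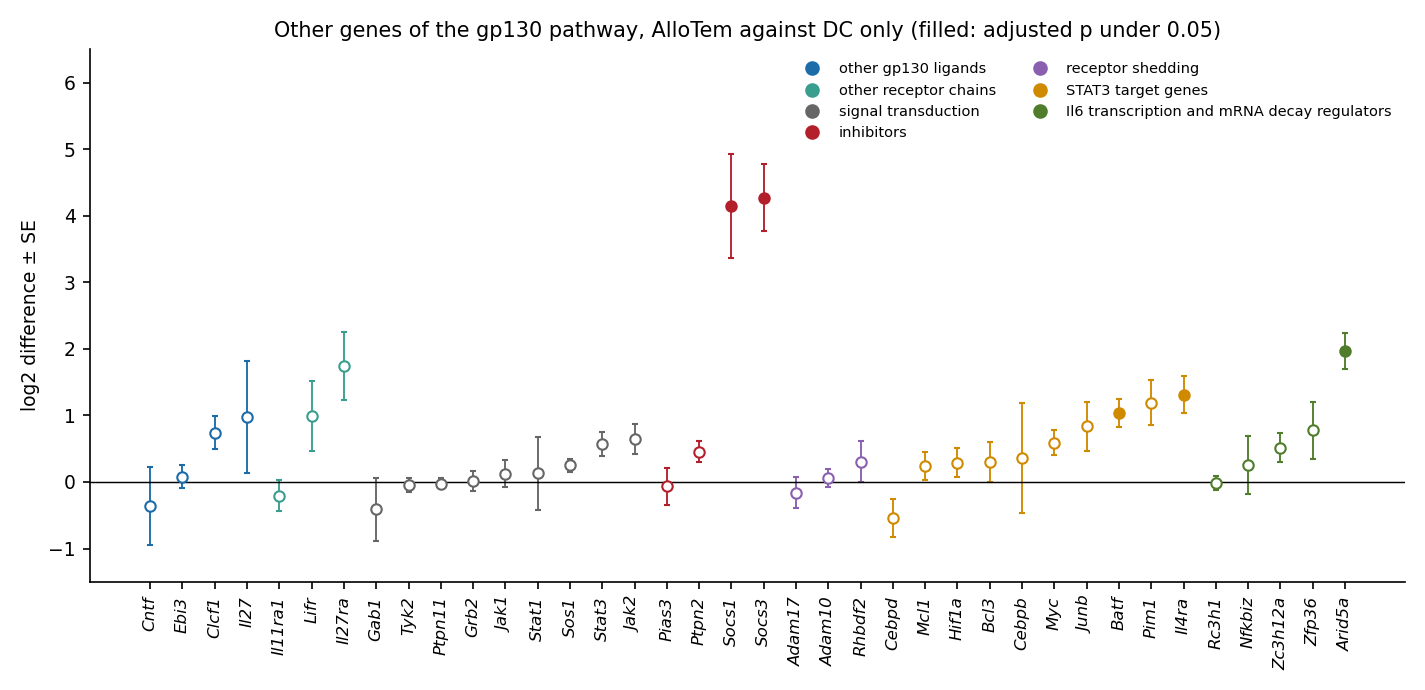
Log2 difference (vertical axis, AlloTem minus DC only, ± SE) of the 38 tested pathway genes other than the 5 members, coloured by list and filled where the adjusted p in edgeR was under 0.05. The 5 filled genes are Socs1, Socs3, Il4ra, Batf and Arid5a, and Socs1 and Socs3 have the largest values, at 4.14 and 4.27.

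Across the 12 libraries the members' log2 levels were related as the group means imply, and since the points share groups and batches these correlations are descriptions. Pearson's r was -0.94 between Osm and Il6st, -0.93 between Lif and Il6st, 0.84 between Osm and Lif, 0.79 between Il6 and Osm, and 0.48 between Il6st and Il6ra. Genes most like a member were sought among 9662 with a mean of at least 5 CPM and a symbol other than a predicted one. Those most like Osm were Nfil3, Egr2 and Id1 (r of 0.97 each), and those most like Lif were Nfil3 (0.92), Cish (0.90) and Csf1 (0.90). The genes most like Il6 were Slc2a1, which encodes a glucose transporter (0.95), Sdc4 (0.93) and Csrnp1 (0.93). Il6st was most like Abca3 (0.96), Commd8 and Nfatc2 (0.95 each), and Il6ra most like Fnip2, Scarb1 (0.86 each) and Osbpl11 (0.85). Spearman's rho for these genes lay between 0.825 (Fnip2) and 0.972 (Slc2a1 and Nfatc2). Mean levels show the shared pattern, with Nfil3 at 24.6, 38.4, 63.6 and 199.9 CPM and Sdc4 at 53.4, 103.0, 38.2 and 270.1 CPM in DC only, LPS, SynTem and AlloTem. Nfil3 thus ordered SynTem above LPS, as Osm did, and Sdc4 ordered LPS above SynTem, as Il6 did.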

How the data were processed

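The 12 RNA sequencing libraries were placed in 4 groups of 3 by their labels. The authors deposited raw counts per Ensembl gene identifier, with no normalization, on genome build mm10 per the submitters' processing notes. Which aligner, counter, strand setting and annotation release were used is not given in the sources used here. The authors also deposited a table of batch numbers, without saying what a batch was, and these matched the replicate numbers in 12 of 12 libraries. Symbols came from GENCODE M21 for 52080 of 57009 identifiers (the others held 0.754% of counts).

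Genes were kept by filterByExpr (minimum count 10, minimum total 15), scaled by TMM, and tested by the robust quasi-likelihood method of edgeR 4.0.16 under R 4.3.3, in 1 fit of all 12 libraries with a mean for each group. P-values were adjusted by Benjamini-Hochberg over 14413 genes and called under 0.05. Standard errors were obtained as the absolute log2 difference over the root of F. Levels are CPM on TMM-scaled totals, and within-batch log2 ratios were taken after adding 0.5 CPM. The fit was tested on simulated data.

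The members, the gene lists and the tests were chosen with earlier results of these data known. Pathway genes named were, per list and comparison, those called or otherwise the one with the smallest p, and per member the 3 genes with the highest Pearson correlation of log2 CPM (prior count 2). Pias3, Ptpn2, Pim1, Bcl3, Cebpb, Cebpd, Mcl1, Hif1a, Osmr, Cntfr, Il27, Il11 and Ctf1 were named beyond that rule to describe their lists, after their values were seen. Zc3h12a, Myc, Junb, Jak2, Stat3, Lifr, Clcf1, Ebi3, Cntf, Adam10 and Adam17 met the rule in some comparisons, and were chosen for others after their values were seen. Sos1 and Grb2 met it in some comparisons and are not described above. One gene of the ligand list is not reported here.

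Libraries were paired by their deposited batch number for the block and the ratios. As a check, deviations from group means correlated with a median of 0.247 over 18 pairs of libraries with the same number (range -0.249 to 0.632) and -0.201 over 36 other pairs. SynTem 2 correlated at -0.249, -0.009 and -0.095 with the libraries of its own number and at 0.388 to 0.476 with library 3 of the other groups, so block and within-batch values of SynTem rest on a pairing that its values do not show. Alternatives were RLE and upper quartile scaling, DESeq2 1.42.0, limma 3.58.1 voom, other filters, the replicate block, the 6 libraries compared alone, Y-linked transcripts as a covariate, and left-out libraries (each in turn, and DC only 2 with SynTem 2).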

Additional observations from a re-analysis of the deposited data

How the results depend on the processing

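With 3 libraries a group, calls near the threshold moved with the fit, while directions mostly held. Without one library at a time, log2 differences with another sign were those of Rhbdf2 in AlloTem against SynTem (range -0.034 to 0.458), Il6ra in AlloTem against LPS (-0.07 to 0.062), Il6 in SynTem against DC only (-0.111 to 0.81) and Il6ra in SynTem against LPS (-0.011 to 0.156). The direction of Il6ra in AlloTem against SynTem also turned, at 0.019 without SynTem 1. Another scaling moved the median of all genes by at most 0.017 on the log2 scale.

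Without DC only 2 and SynTem 2, Il6 (log2 3.22, adjusted p = 0.0838 in edgeR) and Lif (5.03, 0.139) in AlloTem against DC only and Il6st in AlloTem against LPS (-0.77, 0.0741) were no longer called, and Rhbdf2 in AlloTem against SynTem was at -0.034. With only the 6 libraries compared, Osm (3.14, 0.0834) and Il6st (-0.77, 0.163) in AlloTem against LPS were lost, and in limma voom Lif in AlloTem against DC only (5.95, 0.155). DESeq2 added Lif in AlloTem against LPS (3.26, 0.00306), and in SynTem against DC only Osm (1.65, 0.0165), Lif (4.16, 0.000654) and Il6st (-0.56, 0.00127). With a single library left out, Lif in AlloTem against SynTem lay between 1.01 and 2.82. In AlloTem against DC only Il6 lay between 2.73 and 3.28 and Lif between 5.03 and 6.29, and in AlloTem against LPS Osm lay between 2.83 and 3.60 and Il6st between -0.87 and -0.69. The cause of these losses and gains was not tested.

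Counts of called genes over the whole table follow, in the order AlloTem against SynTem, against DC only and against LPS, and SynTem against DC only and against LPS. They were 24, 253, 65, 13 and 7 as reported, 318, 677, 288, 255 and 198 in DESeq2, and 78, 420, 136, 21 and 28 with the replicate block. They were 39, 603, 189, 44 and 38 with the Y-linked covariate, 0, 98, 9, 1 and 0 with only the 6 libraries compared, and 2, 16, 25, 1 and 0 without DC only 2 and SynTem 2. With no filter 41 were called in the first comparison and 33 and 16 in the last pair. In that pair limma voom called 2 and 1, and upper quartile scaling called 11 in SynTem against LPS. In LPS against DC only DESeq2 called 11 and the fit without DC only 2 and SynTem 2 called 1. Leaving out 1 library gave 3 to 47, 42 to 323, 9 to 55, 0 to 56, 0 to 37 and, for LPS against DC only, 0 to 1.

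Of the 38 pathway genes, DESeq2 called 5 and limma voom 1 in AlloTem against SynTem (0 to 1 with a library left out). In AlloTem against DC only, where 5 were called, the number was 3 with no filter, 10 with the Y-linked covariate, 2 with only the 6 libraries and 1 without DC only 2 and SynTem 2 (1 to 5 with a library left out). In AlloTem against LPS it was 2, and 1 with no filter, 1 with the replicate block, 5 with the Y-linked covariate and 0 in both smaller fits (0 to 2). In SynTem against DC only DESeq2 called 3 and the Y-linked covariate 1. In SynTem against LPS DESeq2, the replicate block and the Y-linked covariate called 1 each (0 to 1). The replicate block changed no call of the 5 members, and of named pathway genes it changed those of Socs1, Il27ra and Zc3h12a in AlloTem against DC only, Socs3 in AlloTem against LPS and Zc3h12a in SynTem against LPS. Lif, with 0 to 7 counts per library in DC only, was the member most limited by depth.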
